A study of Mus musculus with 11 samples.

Results

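Border-associated macrophages are the resident macrophages of the brain's edges: the perivascular spaces, the meninges and the choroid plexus. They derive from the same lineage as microglia and depend on the CSF-1 receptor, and they are told from microglia by endocytic and scavenger receptors such as the mannose receptor, while microglia are marked by Tmem119 and P2ry12. Here 8 genes that mark these cells (Mrc1, Cd163, Pf4, Lyve1, Cbr2, Stab1, Folr2 and Clec10a) were looked up by symbol in a table of 14739 genes. The table held 5 of them, Stab1, Folr2, Clec10a, Pf4 and Cbr2, and 3 (Mrc1, Cd163 and Lyve1) were not analysed here.

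The RNA came from microglia of the cerebrum, sorted for Tmem119 from aged C57BL/6 mice and sequenced in bulk. The 11 libraries formed 4 genotype groups: 3 wild-type (WT), 3 Csf1r+/- (Csf1r_het), 3 Csf2+/- (Csf2het) and 2 Csf1r+/-; Csf2+/- (Dhet). Csf1r is the gene of the CSF-1 receptor, which also binds IL-34, and Csf2 is the gene of the cytokine GM-CSF. Age was 21 months for most libraries, 20 months for the first Csf1r_het library and 24 months for the second library of both Csf1r_het and Dhet. The question of the series was how loss of a copy of either gene, or of both, alters aged microglia. The labels do not say whether each library is a separate mouse, so p-values measure the spread between these libraries. All values below are normalized counts, which are reads per gene scaled by the authors with 1 factor per library.

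The libraries held 21037819 to 53081638 reads assigned to genes, and a single read corresponded to 0.479 to 1.48 normalized counts. The share of haemoglobin genes was 16.1% to 58.8% of the counts, and was highest in Csf1r_het replicate 2, which also had the most genes at 0 (15.6%, against 4.98% to 9.88% elsewhere). Dhet replicate 2 was the only library with more Ddx3y (717 normalized counts) than Xist (4.02). The targeted gene Csf1r ran from 17017 to 40567 normalized counts in the 5 Csf1r+/- libraries and from 41261 to 93319 in the other 6 (2-sided exact permutation p = 0.00433). In the limma test used below for each group against WT, Csf1r itself did not pass. Its log2 fold change was -1.29 in Csf1r_het (limma adjusted p = 0.184) and -0.84 in Dhet (limma adjusted p = 0.589). All 11 microglial markers used here, led by Sparc and P2ry12 and including Tmem119, had reads in every library. Their summed level was lowest in WT replicate 2 (93023 normalized counts), and among the groups it ran up to 206948 in WT, from 218742 to 253882 in Csf1r_het, from 285622 to 384106 in Csf2het and from 240888 to 322313 in Dhet.

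Sequences are shown for what they say about these 5 genes as a marker set and about how cleanly each was counted. Of the 5 genes, 4 had a promoter window in RefSeq (GRCm38.p6), 250 bases before to 50 bases after the start of transcription. The windows are printed 5' to 3' in the sense of the gene so that the promoters of genes used together as markers can be compared. Capitals mark exact matches, on either strand, to GAGGAA, a core of the site of the myeloid factor PU.1, to AGATAA, a core of the GATA site, and to TGCTGA, part of the site of MAF factors.
Stab1, chr14:31168592-31168891, reverse strand: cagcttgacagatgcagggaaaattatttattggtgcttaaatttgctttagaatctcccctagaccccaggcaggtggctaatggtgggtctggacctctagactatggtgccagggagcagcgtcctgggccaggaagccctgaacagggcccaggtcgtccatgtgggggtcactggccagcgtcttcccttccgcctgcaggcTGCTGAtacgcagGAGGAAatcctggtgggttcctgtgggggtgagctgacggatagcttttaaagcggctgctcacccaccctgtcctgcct
Folr2, chr7:101857141-101857440, reverse strand: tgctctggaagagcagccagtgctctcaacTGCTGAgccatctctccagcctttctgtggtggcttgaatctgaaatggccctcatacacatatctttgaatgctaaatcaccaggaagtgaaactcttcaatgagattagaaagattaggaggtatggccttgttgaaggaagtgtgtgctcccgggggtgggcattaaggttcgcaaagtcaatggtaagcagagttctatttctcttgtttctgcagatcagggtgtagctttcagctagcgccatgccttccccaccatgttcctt
Pf4, chr5:90772185-90772484, forward strand: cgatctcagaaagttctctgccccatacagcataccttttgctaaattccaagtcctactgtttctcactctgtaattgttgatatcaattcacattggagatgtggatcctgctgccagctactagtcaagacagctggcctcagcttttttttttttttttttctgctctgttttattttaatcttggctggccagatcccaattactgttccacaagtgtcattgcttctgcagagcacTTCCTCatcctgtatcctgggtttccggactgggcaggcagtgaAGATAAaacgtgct
Cbr2, chr11:120731972-120732271, reverse strand: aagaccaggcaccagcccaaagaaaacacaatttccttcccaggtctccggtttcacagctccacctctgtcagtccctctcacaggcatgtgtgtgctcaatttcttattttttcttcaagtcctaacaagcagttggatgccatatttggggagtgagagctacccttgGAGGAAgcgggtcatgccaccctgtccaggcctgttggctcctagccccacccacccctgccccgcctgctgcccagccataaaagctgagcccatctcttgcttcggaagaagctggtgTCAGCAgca
GAGGAA occurred once in the windows of Stab1, Pf4 and Cbr2, TGCTGA once in those of Stab1, Folr2 and Cbr2, and AGATAA once in that of Pf4. None of the 3 motifs overlapped another in these windows. Among 32851 RefSeq windows of the same length, 28.3% held GAGGAA, 11.2% held AGATAA and 19.5% held TGCTGA, so each of these words is common. A second window of Folr2, at another start site, also held TGCTGA once and neither of the other words. No word was present in all 4 windows.

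The next sequence is the longest exact run shared by the coding sequences of Clec10a and its neighbour Mgl2, which encode closely related galactose-type lectins. It is printed in capitals, all of its bases being shared, because a read that lies within it cannot be given to either gene. The run covers bases 502 to 684 of the 924 coding bases of Clec10a.
Clec10a and Mgl2, shared coding run of 183 bases: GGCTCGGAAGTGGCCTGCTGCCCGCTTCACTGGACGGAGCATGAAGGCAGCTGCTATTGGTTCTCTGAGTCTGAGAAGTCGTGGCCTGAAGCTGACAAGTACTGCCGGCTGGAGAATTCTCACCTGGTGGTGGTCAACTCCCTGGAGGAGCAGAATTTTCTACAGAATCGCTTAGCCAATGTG
Of the runs of 31 bases in the Clec10a coding sequence, 40.5% were also in that of Mgl2, and over all GENCODE vM21 transcripts 85.2% of the Clec10a runs belonged to no other gene. For Cbr2 the share was 85.0%, since 198 of 1323 runs also lay in the pseudogene Gm11771. For Stab1 it was 99.3%, and for Pf4 and Folr2 100%. Folr2 shared at most 20 coding bases in a row with Folr1, the folate receptor gene beside it on chromosome 7. The split of reads between Clec10a and Mgl2, and to a lesser degree between Cbr2 and Gm11771, is therefore uncertain, while Pf4 and Folr2 had no such run in another gene and Stab1 had few. The word length that the authors used to match reads was not known here.

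Per kb of exon, all 5 genes averaged below each microglial marker used here. Per kb of exon, and averaged over the 11 libraries, the level was 266 normalized counts for Pf4, 186 for Stab1, 56.5 for Clec10a, 41.7 for Cbr2 and 24.1 for Folr2. These levels lay at the 78.6, 72.1, 42.3, 33.4 and 19.7 percentile of the 14723 genes with a length. On the same scale Tmem119 had 8573 and P2ry12 had 16493, while Sall1, the lowest of the microglial markers used here, had 522. The ranges over libraries overlapped for each pair of neighbours in this order. The genes were counted in the same libraries, so this overlap cannot tell whether neighbours kept their order within libraries. Among libraries the coefficient of variation was 39.3% for Stab1, 58.8% for Clec10a, 62.6% for Pf4, 91.6% for Cbr2 and 98.1% for Folr2. Cbr2 and Folr2 were each at 0 in 2 libraries.

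**Figure D1:**
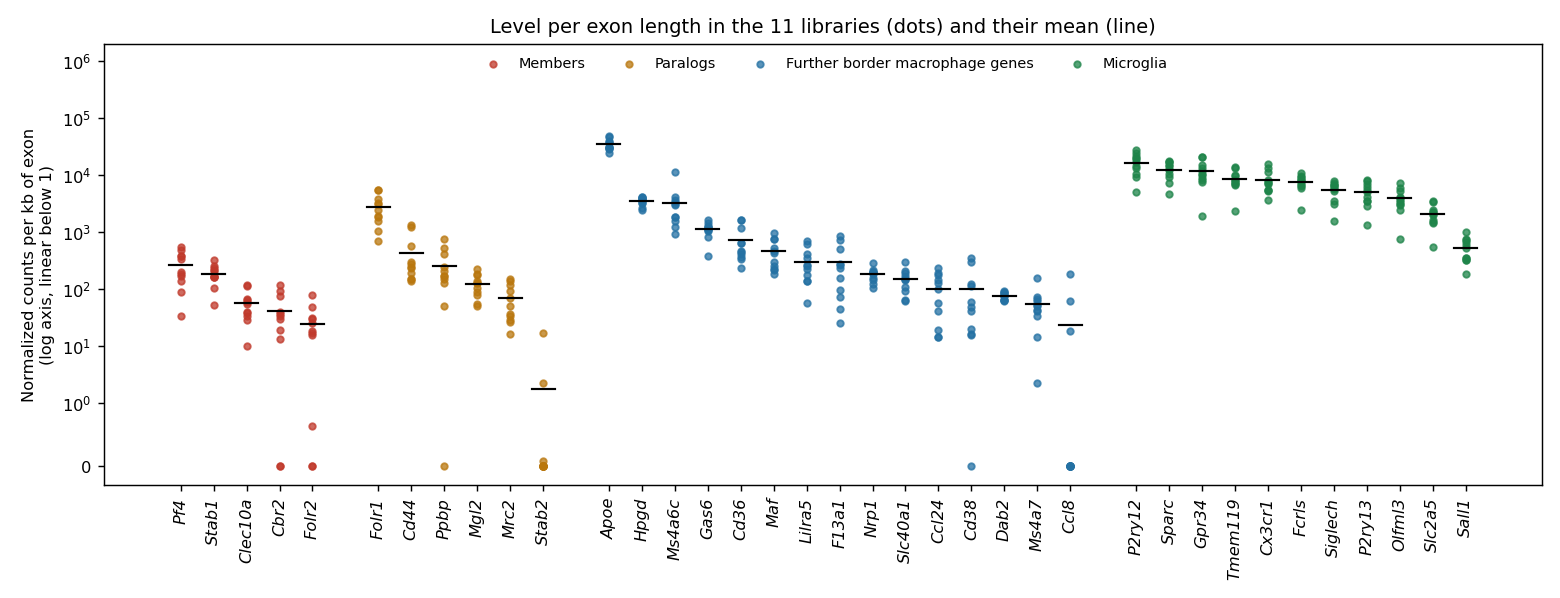
Normalized counts per kb of exon for the 5 genes, their paralogs, further border macrophage genes and microglial markers (vertical log axis, linear below 1), with a dot for each of the 11 libraries and a line at their mean. The 5 genes average 24.1 to 266 per kb, while Tmem119 averages 8573 and P2ry12 16493.

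Across the comparisons none of the 5 genes passed the test. With limma at an adjusted p below 0.05, 0 of 5 were called in Csf1r_het, where 1.32% of all 13223 genes tested were called, 0 of 5 in Csf2het (3.65% of all genes) and 0 of 5 in Dhet (0.529%), each against WT. For Dhet against Csf1r_het 0 of 5 were called (0.00756% of all genes), for Dhet against Csf2het 0 of 5 (0.0227%) and for the interaction of the 2 genotypes 0 of 5 (1.85%). All 5 genes passed the filter on low values, a mean of at least 10 normalized counts. At an unadjusted p below 0.05 limma counted 0 of 5 in each comparison with WT, 0 of 5 for Dhet against Csf1r_het, 1 of 5 for Dhet against Csf2het and 1 of 5 for the interaction, both times Pf4. The edgeR quasi-likelihood test and DESeq2 on the recovered reads also called 0 of 5 in each of the 6 comparisons, with 1 of 5 below an unadjusted 0.05 for the interaction by either tool, and 0 of 5 by edgeR and 1 of 5 by DESeq2 for Dhet against Csf2het. The intervals below are not adjusted for the number of genes tested. They give a range of change for each gene and comparison, not the smallest change that the adjusted test would call. A lower level in such bulk samples cannot tell fewer border macrophages from less RNA per cell.

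The median log2 fold change of the 5 genes was 0.67 in Csf1r_het, 0.72 in Csf2het and 0.78 in Dhet, all against the same WT libraries. Over all genes it was -0.12, -0.025 and 0.021. In Csf1r_het 5 of 5 genes had a positive log2 fold change (44.4% of all genes), in Csf2het 3 of 5 (48.8%) and in Dhet 3 of 5 (50.9%). Since they share the WT libraries, these values are not independent of each other. Counting genes whose libraries did not overlap between the groups, Csf1r_het lay above WT for 1 of 5 (8.61% of all genes) and below for 0 of 5 (12.8%). Csf2het lay above WT for 1 of 5 (11% of all genes) and below for 0 of 5 (14.3%), and Dhet lay above WT for 1 of 5 (13.5%) and below for 0 of 5 (12.6%). Dhet lay above Csf1r_het for 0 of 5 (18.5% of all genes) and below it for 2 of 5 (14.4%), and it lay above Csf2het for 0 of 5 (16.7%) and below it for 1 of 5 (12.9%).

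**Figure D2:**
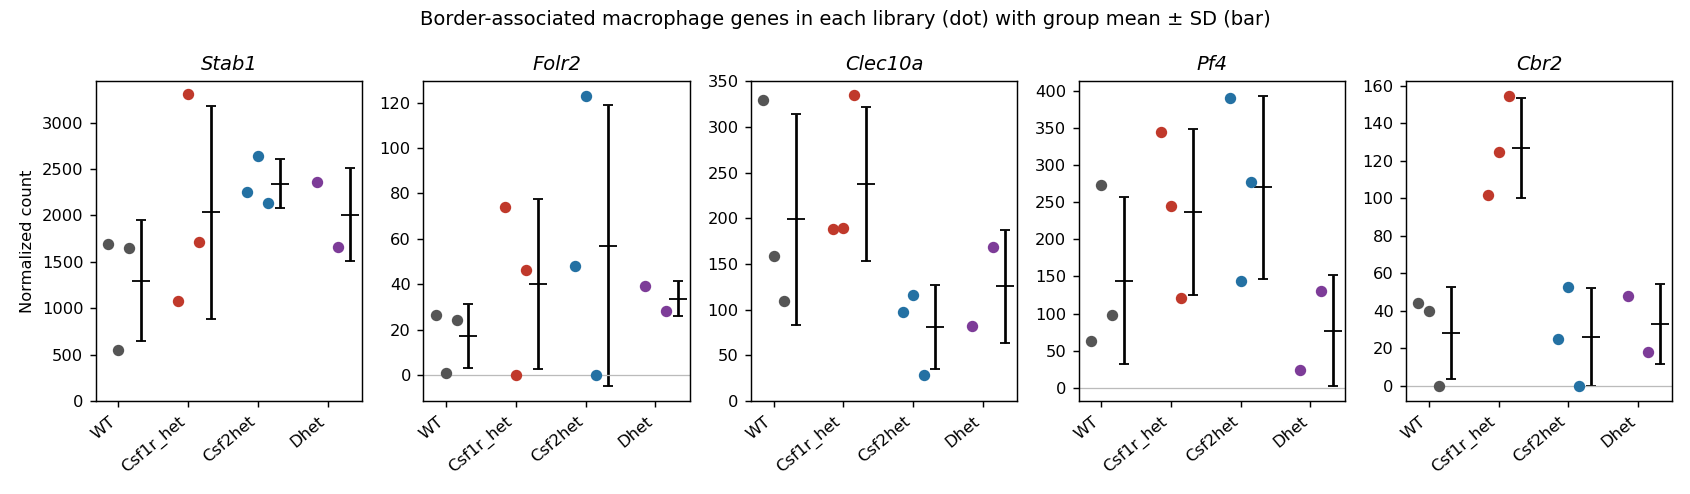
Normalized count of each gene (vertical axis, a separate linear scale for each panel) in every library (dots), by genotype group, with the group mean and SD as a bar. The Csf1r_het libraries of Cbr2 (102 to 155) lie above those of all other groups, and the other panels show groups that mostly overlap.

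Among the receptors, Stab1 (ENSMUSG00000042286.13, chromosome 14, 31139013 to 31168641, mm10) encodes stabilin-1, a scavenger receptor that takes up modified lipoproteins and matrix fragments. Its normalized counts were 1692, 546 and 1650 in WT, 1076, 3310 and 1715 in Csf1r_het, 2249, 2640 and 2136 in Csf2het, and 2361 and 1659 in Dhet. All 3 Csf2het libraries lay above all 3 WT libraries, and WT replicate 2 was the lowest of the 11. The means were 1296 ± 650 in WT, 2034 ± 1151 in Csf1r_het, 2342 ± 264 in Csf2het (SD, n = 3 each) and 2010 ± 496 in Dhet (n = 2). The log2 fold change in Csf2het was 1.02 (SE 0.47, 95% interval -0.0048 to 2.04, limma adjusted p = 0.291), so it did not pass. In Csf1r_het it was 0.67 (-0.36 to 1.69, limma adjusted p = 0.511) and in Dhet 0.78 (-0.36 to 1.92, limma adjusted p = 0.631). With 1 library left out the value in Csf1r_het was lowest, at 0.13, without WT replicate 2 and highest, at 1.05, without Csf1r_het replicate 1, and that in Dhet went from 0.24 to 1.06 without WT replicate 2 and WT replicate 1. Leaving out WT replicate 2 gave 0.48 in Csf2het, the lowest value with 1 library left out, and the highest was 1.30. The summed microglial markers, lowest in the same WT replicate 2, were higher in each Csf2het library than in any WT library, and 3 of 11 of them rose in Csf2het by limma. Their part in the level of Stab1 was not tested.

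Folr2 (ENSMUSG00000032725.10, chromosome 7, 101839988 to 101857194) encodes folate receptor beta, a folate-binding surface protein of tissue macrophages. In WT it had 26.3, 0.97 and 24.1 normalized counts, in Csf1r_het 73.9, 0 and 46.3, in Csf2het 48.0, 123 and 0, and in Dhet 39.0 and 28.2. Each group of 3 thus held a library at 0 or, in WT replicate 2, at 1 read, beside libraries with 21 to 257 reads. In Csf2het replicate 2 Folr2 had 257 reads (95% exact Poisson interval 227 to 290), while in Csf2het replicate 3 it had 0 reads, for which the floor of 3 reads corresponds to 4.09 normalized counts. These intervals cover counting error only. The spread within that group was therefore far beyond counting error. Both Dhet libraries lay above the 3 WT libraries, by a narrow margin. The log2 fold change was 0.46 in Csf1r_het (95% interval -3.89 to 4.82, limma adjusted p = 0.934), 0.72 in Csf2het (-3.64 to 5.08, limma adjusted p = 0.904) and 1.63 in Dhet (-3.24 to 6.50, limma adjusted p = 0.838). These intervals are wide enough to hold both a large rise and a large fall of Folr2. With 1 library left out the value ran from -0.78 to 2.43 in Csf1r_het and from -0.66 to 2.82 in Csf2het.

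The neighbouring paralog Folr1, a folate transporter of the choroid plexus epithelium, was far higher, with a mean of 2773 normalized counts per kb against 24.1 for Folr2. It averaged 3150 ± 1410 normalized counts in WT, 10735 ± 3045 in Csf1r_het, 7230 ± 1559 in Csf2het (SD, n = 3 each) and 3363 ± 1381 in Dhet (n = 2). Folr1 rose in Csf1r_het (log2 fold change 1.85, SE 0.41, limma adjusted p = 0.0471), and that call held in 7 of 22 alternative fits, with adjusted p from 0.000917 to 0.175. With 1 library left out it was lost without WT replicate 1 or 3, without any 1 of the 3 Csf1r_het libraries, without any 1 of the 3 Csf2het libraries and without either Dhet library. The interaction of Folr1 was -2.99 (SE 0.61, limma adjusted p = 0.0275), called in 14 of 21 alternative fits (adjusted p from 0.000191 to 0.141) and lost without Csf1r_het replicate 1 or 3, any 1 Csf2het library or Dhet replicate 1 and with the replicate number as a block. Folr1 is itself on the choroid plexus list, where Ttr and Enpp2 had the highest means. The summed choroid plexus markers ran from 442763 to 699978 in WT, from 908548 to 1609190 in Csf1r_het, from 940250 to 1222940 in Csf2het and from 288772 to 650194 in Dhet, with none of the 10 at 0 in any library. Their part in the level of Folr2 was not tested.

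Clec10a (ENSMUSG00000000318.16, chromosome 11, 70156197 to 70170834) encodes a C-type lectin of macrophages and dendritic cells that binds galactose and N-acetylgalactosamine. Its normalized counts were 329, 158 and 109 in WT, 189, 190 and 335 in Csf1r_het, 97.0, 116 and 28.6 in Csf2het, and 81.8 and 169 in Dhet. Csf2het replicate 3 was the lowest of the 11, and the Csf2het and WT ranges overlapped only between 109 and 116. The mean was 199 ± 116 in WT and 80.7 ± 46.1 in Csf2het (SD, n = 3 each), 2.47-fold lower. The log2 fold change in Csf2het was -1.36 (SE 0.72, 95% interval -2.91 to 0.19, limma adjusted p = 0.365) and did not pass. It was 0.36 in Csf1r_het (-1.19 to 1.90, limma adjusted p = 0.846) and -0.60 in Dhet (-2.33 to 1.13, limma adjusted p = 0.83). Without Csf2het replicate 3 the Csf2het value was -0.74. The value in Csf1r_het was 0.0034 without WT replicate 3 and was 0.80 without WT replicate 1, and the value in Dhet was -0.078 without Dhet replicate 1 and -1.12 without Dhet replicate 2. Both Dhet libraries lay below the 3 Csf1r_het libraries for Clec10a, as they did for Cbr2.

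Mgl2, whose reads are partly shared with Clec10a, showed a log2 fold change of 0.0054 in Csf1r_het, -0.74 in Csf2het and -0.54 in Dhet, and none passed (limma adjusted p = 0.998, 0.594 and 0.816). Dendritic cells also express Clec10a. Of 8 dendritic cell markers 4 were in the table, led by Cd209a and Batf3, and their summed level ran from 1359 to 2149 in WT, 453 to 2508 in Csf1r_het, 1044 to 1570 in Csf2het and 1722 to 2315 in Dhet. Ccr7 and Cd209a were at 0 in some libraries. Their part in the level of Clec10a was not tested.

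Pf4 (ENSMUSG00000029373.7, chromosome 5, 90772435 to 90773383) encodes the chemokine CXCL4, or platelet factor 4, which border macrophages express and platelets store. It had 62.9, 273 and 97.5 normalized counts in WT, 345, 244 and 121 in Csf1r_het, 390, 144 and 277 in Csf2het, and 24.0 and 131 in Dhet. Dhet replicate 1 was the lowest of the 11 by a wide margin, and both Dhet libraries lay below all 3 Csf2het libraries. The means were 144 ± 112 in WT, 237 ± 112 in Csf1r_het, 270 ± 123 in Csf2het (SD, n = 3 each) and 77.3 ± 75.3 in Dhet (n = 2). The log2 fold change of Pf4 was 0.86 in Csf1r_het (95% interval -0.87 to 2.59, limma adjusted p = 0.628), 1.06 in Csf2het (-0.66 to 2.79, limma adjusted p = 0.554) and -1.06 in Dhet (-3.00 to 0.87, limma adjusted p = 0.707). The mean was thus above WT in each single heterozygote and below it in Dhet, none of these differences passing the test. The interaction was -2.99 (95% interval -5.58 to -0.40, limma adjusted p = 0.213), which did not pass over all genes.

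Against Csf2het the Dhet value of Pf4 was -2.13 (SE 0.89, limma adjusted p = 0.57), and against Csf1r_het it was -1.93 (SE 0.89, limma adjusted p = 0.476). Without Dhet replicate 1 the interaction was -1.79 and the Dhet against WT value 0.13, and without Dhet replicate 2 they were -4.19 and -2.26. Of the alternatives none brought the interaction past the threshold, with adjusted p from 0.0938 to 0.533. The platelet gene Ppbp, which lies with Pf4 in the chemokine family, had 133 ± 69.0 normalized counts in WT, 384 ± 223 in Csf1r_het, 413 ± 360 in Csf2het (SD, n = 3 each) and 129 ± 183 in Dhet (n = 2), where replicate 1 had 0 and replicate 2 had 258, and it passed in none of the 6 comparisons. Of 12 platelet and megakaryocyte genes, a list added after the data were seen, 6 were in the table, led by Itgb3 and Gp9. Their sum ran from 1058 to 1907 in WT, 1486 to 2150 in Csf1r_het, 1293 to 2173 in Csf2het and 1218 to 1403 in Dhet, with Clec1b, Gp1bb, Itga2b and Ppbp at 0 in some libraries. Their part in the level of Pf4 was not tested.

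**Figure D3:**
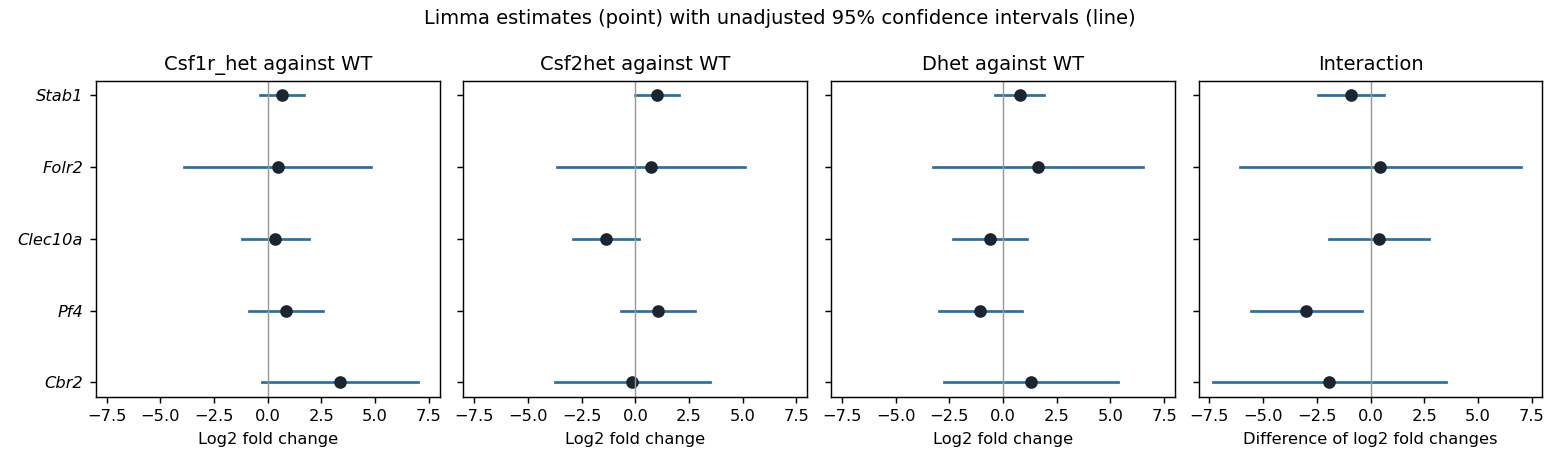
Limma log2 fold changes of the 5 genes in each heterozygous group against WT, and the interaction as a difference of log2 fold changes (points, horizontal axis), with unadjusted 95% confidence intervals (lines). Of the intervals shown, that of Pf4 in the interaction (-5.58 to -0.40) is the only one that does not include 0.

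Cbr2 (ENSMUSG00000025150.10, chromosome 11, 120729489 to 120732114) encodes carbonyl reductase 2, an NADPH-dependent enzyme of carbonyl metabolism. In Csf1r_het it had 102, 124 and 155 normalized counts, in WT 44.3, 39.8 and 0, in Csf2het 25.03, 52.7 and 0, and in Dhet 48.1 and 17.8. All 3 Csf1r_het libraries lay above the other 8, and the other 3 groups overlapped each other. The mean was 28.03 ± 24.4 in WT and 127 ± 26.6 in Csf1r_het (SD, n = 3 each), 4.53-fold higher. The fitted log2 fold change was 3.36 (SE 1.68, 95% interval -0.26 to 6.98, limma adjusted p = 0.34), so it did not pass. That value leaned on WT replicate 3, where no read of Cbr2 was found: without it the log2 fold change was 1.55.

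In Csf2het the log2 fold change of Cbr2 was -0.13 (95% interval -3.76 to 3.49, limma adjusted p = 0.983) and in Dhet 1.31 (-2.74 to 5.36, limma adjusted p = 0.845). For Dhet against Csf1r_het it was -2.05 (SE 1.87, limma adjusted p = 0.656) although the groups did not overlap, and the interaction was -1.92 (SE 2.51, limma adjusted p = 0.728). In reads, the Csf1r_het libraries had 77, 84 and 147, and the 2 libraries at 0 had 0 reads, which allows up to 3.44 normalized counts in WT replicate 3 and 4.09 in Csf2het replicate 3 at the floor of 3 reads. Csf1r_het replicate 2, the library with the most haemoglobin, held 124 and was not the highest of its group.

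None of the 10 pairs of these genes had a correlation over the libraries that passed adjustment. Of the 10 pairs, Cbr2 and Clec10a had the highest correlation of log2 levels over the 11 libraries (Pearson r = 0.70, permutation p = 0.018, adjusted over the 10 pairs 0.18; Spearman rho = 0.65, permutation p = 0.0346, adjusted 0.346). Without the 2 libraries farthest from the median of Cbr2 r was 0.46, so that relation rested in part on the libraries without a Cbr2 read. Within groups r was 0.74. The other 9 pairs had r from -0.32 to 0.32, with adjusted permutation p of at least 0.813.

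**Figure D4:**
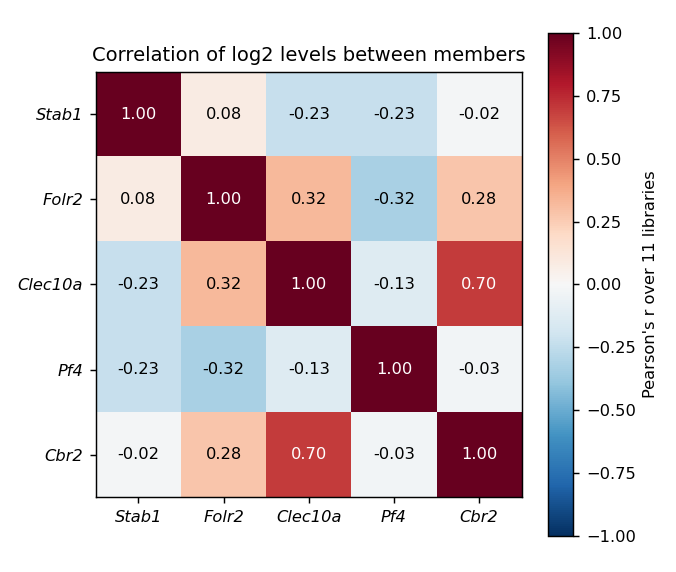
Pearson correlations of log2(normalized count + 1) between the 5 genes over the 11 libraries, as colours and numbers. Cbr2 and Clec10a stand at 0.70, and the other pairs lie between -0.32 and 0.32.

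The genes were also set against the mean log2 level of 6 marker lists and against 3 paralogs, 33 relations in all, and none passed an adjusted permutation p of 0.05. The lowest unadjusted Pearson p was that of Stab1 with the microglial markers. Against the 11 microglial markers Stab1 had Pearson r = 0.86 (permutation p = 0.00343, adjusted 0.0994) and Spearman rho = 0.81 (permutation p = 0.00383, adjusted 0.11), a Pearson r of 0.80 within groups, and 0.50 without the 2 libraries farthest from the median of the markers, so the relation rested partly on those libraries. Against the 10 monocyte markers it had r = -0.70 (permutation p = 0.012, adjusted 0.0994; rho = -0.77, permutation p = 0.00712, adjusted 0.11), and -0.77 without the 2 farthest libraries. Clec10a had r = 0.70 with the 16 further border macrophage genes (permutation p = 0.0106, adjusted 0.0994; rho = 0.74, permutation p = 0.0126, adjusted 0.11), and 0.57 without the 2 farthest libraries. Mgl2, whose reads are partly shared with Clec10a, is among these 16. For Clec10a and Mgl2 r was 0.65 (permutation p = 0.0281, adjusted 0.185; rho = 0.61, permutation p = 0.0504, adjusted 0.232), for Pf4 and Ppbp 0.78 (permutation p = 0.0114, adjusted 0.0994; rho = 0.61, permutation p = 0.0527, adjusted 0.232) but 0.20 without the 2 farthest libraries, and for Folr2 and Folr1 0.35 (permutation p = 0.285, adjusted 0.671; rho = 0.58, permutation p = 0.0665, adjusted 0.232). Folr2 and the 10 choroid plexus markers had r = 0.54 (permutation p = 0.0709, adjusted 0.26; rho = 0.73, permutation p = 0.0134, adjusted 0.11), with r of 0.72 within groups and 0.81 without the 2 farthest libraries. Pf4 and the 6 platelet and megakaryocyte genes, Ppbp among them, had r = 0.62 (permutation p = 0.0448, adjusted 0.211), but 0.13 without the 2 farthest libraries. Clec10a and the 10 monocyte markers had r = 0.62 (permutation p = 0.0373, adjusted 0.205), and 0.37 without the 2 farthest libraries.

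Among genes with a mean of at least 50 normalized counts, those most like each gene over the 11 libraries were picked by the highest Pearson r, as a description. For Stab1 they were 2900092N22Rik (0.96), Cd33, an inhibitory sialic acid receptor of myeloid cells (0.96), and Lmo2, a haematopoietic transcription cofactor (0.95), and 278 genes had r above 0.8. For Pf4 they were Mrpl47 (0.92), Rarres2 (0.91) and 2810006K23Rik (0.91), and for Folr2 Cdc42ep1 (0.94), Moap1 (0.94) and Hid1 (0.93). For Cbr2 they were 1700019D03Rik (0.96), Thap7 (0.91) and AC132332.1 (0.87), and for Clec10a Tsta3, Acot8 and Sephs1 (0.86 each). The genes of a library share its depth and its size factor. Fewer genes followed the last 2, with 6 above 0.8 for Cbr2 and 11 for Clec10a. None of these lists of 3 held another of the 5 genes.

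A list of 22 further border macrophage genes, Mgl2 among them, had 16 in the table, all tested. In Csf2het 3 of 16 fell and 0 rose, in Dhet 1 of 16 fell and 0 rose, and in Csf1r_het 0 of 16 passed by limma. Of all 13223 genes tested, 375 fell in Csf2het, 66 in Dhet and 117 in Csf1r_het. On recovered reads 0 of 16 passed in Csf1r_het with edgeR and 3 of 16 with DESeq2. The Csf2het count was 1 without Csf2het replicate 1 and 5 without Csf1r_het replicate 2. The list's median log2 fold change was -0.0019 in Csf1r_het, -0.063 in Csf2het and -0.13 in Dhet, near the medians of all genes. Of the 16, 8 had a positive log2 fold change in Csf1r_het (44.4% of all genes), 7 in Csf2het (48.8%) and 7 in Dhet (50.9%). The genes of this list with the highest means were Apoe, the lipid carrier (74946 normalized counts over the 11 libraries), Ms4a6c, a membrane protein of myeloid cells (6730), and the prostaglandin-degrading enzyme Hpgd (5929). Ccl24 and Ms4a7, named after their values were seen, were not called by limma. In normalized counts, Ccl24 ran from 18.4 to 24.4 in WT. It ran from 72.6 to 250 in Csf1r_het, 129 to 182 in Csf2het and 52.3 to 301 in Dhet. Ms4a7 ran from 9.76 to 63.8 in Dhet, 152 to 188 in WT, 228 to 683 in Csf1r_het and 220 to 297 in Csf2het. The lowest limma adjusted p was 0.0676 for Ccl24 (Csf2het against WT) and 0.0518 for Ms4a7 (interaction).

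F13a1, which encodes the A chain of coagulation factor XIII and is made by border macrophages and monocytes alike, fell most in Csf2het. F13a1 had 5788, 4863 and 1751 normalized counts in WT, 1069, 495 and 1546 in Csf1r_het, 302, 643 and 172 in Csf2het, and 1853 and 3428 in Dhet. The WT and Csf2het ranges did not overlap, and the Dhet libraries lay within the WT range. The log2 fold change of F13a1 in Csf2het was -3.50 (SE 0.58, limma adjusted p = 0.00547), called in 22 of 22 alternative fits, with adjusted p from 4.34e-07 to 0.0387. Its interaction was 4.93 (SE 0.87, limma adjusted p = 0.0175), called in 15 of 21 alternative fits and lost without WT replicate 1, Csf2het replicate 1 or either Dhet library, without both 24-month libraries and with the replicate number as a block (adjusted p from 1.25e-05 to 0.0618).

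Ms4a6c fell in Csf2het from 12986 ± 9190 to 2554 ± 668 normalized counts (SD, n = 3 each). Its log2 fold change of -2.16 (SE 0.40, limma adjusted p = 0.0115) was no longer called without Csf2het replicate 1 or when only WT and Csf2het were fitted (adjusted p over the alternatives from 2.55e-05 to 0.0712). The scavenger receptor Cd36 fell there from 4672 ± 2028 to 1214 ± 379 (SD, n = 3 each). The log2 difference of -1.87 (SE 0.48) had a limma adjusted p of 0.0497, a call held in 8 of 22 alternative fits (adjusted p from 0.00386 to 0.195). Among the fits with 1 library left out it was lost without any 1 of the 3 Csf2het libraries, without either Dhet library, without WT replicate 1 or 3 and without Csf1r_het replicate 1 or 3. Lilra5, an activating immunoglobulin-like receptor of myeloid cells, fell in Dhet from 1213 ± 301 (n = 3) to 206 ± 123 (SD, n = 2). The log2 difference of -2.66 (SE 0.51) had a limma adjusted p of 0.0404 and was called in 11 of 22 alternative fits (adjusted p from 0.000244 to 0.441). With 1 library left out that call was lost without any 1 of the 3 WT libraries, Csf1r_het replicate 1 or 3, Csf2het replicate 1 or Dhet replicate 1.

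Monocyte markers moved with these calls. In Csf2het 10 of 10 monocyte markers fell, with a median log2 fold change of -3.17, while 1 of 10 fell in Csf1r_het and 1 of 10 in Dhet. Of all 13223 genes tested, 375 fell in Csf2het, 117 in Csf1r_het and 66 in Dhet. In the interaction 5 of 10 monocyte markers were called higher and 0 lower, with a median of 3.45 over the 10. There 159 of all 13223 genes were called higher. That count of markers changed when single libraries were left out. The Csf2het count was 6 without WT replicate 1 or without Csf2het replicate 1 or 3. The Csf1r_het count was 0 without WT replicate 1, any 1 Csf1r_het library or Csf2het replicate 1 or 2, and 2 without WT replicate 3. On recovered reads the Csf1r_het count was 1 with edgeR and 3 with DESeq2. The Dhet count was 0 without WT replicate 1 or 2, Csf1r_het replicate 1, any 1 Csf2het library or Dhet replicate 1, and 2 without WT replicate 3 or Dhet replicate 2. Their sum, led by Chil3 and Plac8, ran from 107624 to 216467 in WT, 52481 to 75331 in Csf1r_het, 16640 to 23968 in Csf2het and 76327 to 83993 in Dhet, and Vcan was the only marker at 0 in any library. The part of these cells in the levels of F13a1, Ms4a6c and Cd36 was not tested. Of the 5 genes described above, none fell with the monocyte list past the test in Csf2het.

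The other paralogs were Cd44, Mrc2 and Stab2. Cd44, a hyaluronan receptor of many leukocytes, fell in Csf1r_het (log2 fold change -2.04, limma adjusted p = 0.017), in Csf2het (-2.75, limma adjusted p = 0.000775) and in Dhet (-1.91, limma adjusted p = 0.0407). In Csf2het the call held in 22 of 22 alternative fits (adjusted p from 4.3e-12 to 0.0167), in Csf1r_het in 17 of 22 (6.07e-06 to 0.129; lost without WT replicate 1 or Csf1r_het replicate 1 or 3) and in Dhet in 9 of 22 (0.000113 to 0.39; lost without WT replicate 1 or 2, Csf1r_het replicate 1 or 3 or any 1 library of Csf2het or Dhet). The interaction of Cd44 was 2.87 (limma adjusted p = 0.0159), called in 17 of 21 alternative fits (adjusted p from 2.8e-05 to 0.0651) and lost without WT replicate 1, Csf1r_het replicate 3 or Dhet replicate 1 and with the replicate number as a block. Mrc2, an endocytic collagen receptor, gave a log2 fold change of 1.30, 1.81 and 1.24 in Csf1r_het, Csf2het and Dhet, and none passed (limma adjusted p = 0.361, 0.178 and 0.598). Stab2, the scavenger receptor of sinusoidal endothelium, averaged 1.76 normalized counts per kb over the 11 libraries, against 186 for Stab1. That mean rested mostly on Dhet replicate 1, with 198 reads. Csf1r_het replicate 1 had 15 reads, WT replicate 1 had 1 and the other libraries had 0.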

How the data were processed

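The submitters' processing notes name kallisto 0.43.1, DESeq2 (no version) and the mm10 build. Per the file headers, the deposited signal holds the authors' normalized counts for 11 libraries. In each library 100% of the values were whole multiples, within 0.02 reads, of its smallest value above 0, taken as 1 read, which gave the recovered reads and the depth.

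Values were tested as log2(normalized count + 1), a scale on which the fold of a low gene depends on the pseudocount and can lie below or, where a library is at 0, above the ratio of means, with 1 limma fit (trended prior, 7 residual and 5.90 prior degrees of freedom) over the 4 groups. Genes with a mean of at least 10 were kept (13223, leaving out 1516), and p-values were adjusted by Benjamini-Hochberg over all of them at 0.05 within each of 6 comparisons. Software was R 4.3.3 with limma 3.58.1, with edgeR 4.0.16, and with DESeq2 1.42.0. On recovered reads, edgeR's quasi-likelihood test called 101 genes in Csf1r_het, 425 in Csf2het and 25 in Dhet against WT, and 208 for the interaction. It called 2 genes in either comparison of Dhet with a single heterozygote. Exon lengths are unions of GENCODE vM21 exons. Correlations used 100000 permutations. Alternatives were the other tools, pseudocounts, filters, median centring, age, a replicate block, and libraries left out.

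Groups came from the sample titles. A marker of the microglial list is not reported here. The genes, lists and tests were chosen with earlier results of these data known. The rule for named genes took the 8 marker genes, their paralogs, Csf1r, Tmem119, P2ry12, called further border macrophage genes and the 3 with the highest mean, the top 2 of each marker list, and the 3 genes most like each gene. Ccl24 and Ms4a7 were named outside this rule. Of the lists for neutrophils (led by S100a8 and S100a9), B cells (Cd79a, Cd79b), T and NK cells (Nkg7, Cd3d), erythroid cells (Hba-a2, Hbb-bs), vessel cells (Pecam1, Vtn) and neural cells (Aldoc, Mbp), 0 genes were called in any of the 6 comparisons, and of the choroid plexus list 1 of 10 rose in Csf1r_het and 1 of 10 was lower in the interaction. The uncalled lists were not level between groups. In Dhet 8 of 8 neutrophil markers had a positive log2 fold change against WT (median 1.64), Csf1r_het (2.62) and Csf2het (2.45). Their sum ran from 628691 to 699445 in Dhet and 44467 to 736653 in WT. It ran from 27356 to 438075 in Csf1r_het and 110434 to 192866 in Csf2het. Of 5 B cell markers 0 were positive in Csf2het against WT (median -2.41). The part of these cells in the 5 genes was not tested.

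Replicate numbers are shared between groups in the titles. Deviations from the group means of libraries with the same number correlated at -0.21 to 0.062 over 15 pairs. The numbers were not taken to pair libraries, although this check cannot exclude pairing.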

Additional observations from a re-analysis of the deposited data

How the results depend on the processing

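In each alternative run none of the 5 genes that it tested was called in any of the 6 comparisons, also with any 1 library left out (0 to 0). Of 649 alternative values for the 30 fold changes of the 5 genes, 611 kept their direction and 38 reversed, and the lowest adjusted p was 0.0938 (Pf4, interaction, limma without WT replicate 2). For Dhet against Csf1r_het, Stab1 reversed to -0.086 with edgeR, -0.064 with DESeq2, -0.045 with each library centred on its median and -0.048 with age as a covariate, and Folr2 to -0.36 with edgeR, -0.36 with DESeq2 and -0.57 without both 24-month libraries. For Dhet against Csf2het, Folr2 reversed to -0.84 with edgeR and -0.80 with DESeq2, and Stab1 to 0.018 without both 24-month libraries. In the interaction, Folr2 reversed to -2.18 with edgeR, -2.16 with DESeq2, -0.39 with a pseudocount of 5 and -1.30 without both 24-month libraries, where Clec10a reversed to -0.25. The cause was not tested. No value exists for Folr2 with a filter at a mean of 50, which it does not reach.

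With 1 library left out, the log2 fold changes that reversed ran from -0.78 to 2.43 (Folr2) in Csf1r_het, from -1.94 to 1.61 (Cbr2) and -0.66 to 2.82 (Folr2) in Csf2het, and from -0.50 to 2.25 (Cbr2) and -2.26 to 0.13 (Pf4) in Dhet. For Dhet against Csf1r_het they ran from -0.27 to 0.54 (Stab1) and -0.80 to 2.31 (Folr2), for Dhet against Csf2het from -0.30 to 2.57 (Cbr2), -1.19 to 2.29 (Folr2) and -0.49 to 0.018 (Stab1), and in the interaction from -1.65 to 1.82 (Folr2) and -0.21 to 0.93 (Clec10a). A group left with 1 library is assumed to vary like the others.

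The count of all genes called moved more. In Csf1r_het it was 174, and 101 with edgeR, 709 with DESeq2, 0 with only the groups compared, 70 with age, 26 without both 24-month libraries and 0 to 439 with 1 library left out. In Csf2het it was 482, and 1130 with DESeq2, 259 with only the groups compared and 172 to 676 with 1 library left out. In Dhet it was 70, and 25 with edgeR, 336 with DESeq2, 0 with only the groups compared, 302 without both 24-month libraries and 2 to 173 with 1 library left out. For Dhet against Csf1r_het it was 1, and 2 with edgeR, 91 with DESeq2, 0 and 3 with a pseudocount of 0.5 and 5, 0 with only the groups compared, 194 without both 24-month libraries and 0 to 121 with 1 library left out. For Dhet against Csf2het it was 3, and 152 with DESeq2, 6 with a pseudocount of 5, 0 with only the groups compared, 0 with age, 218 without both 24-month libraries and 0 to 85 with 1 library left out. For the interaction it was 244, and 908 with DESeq2, 370 without both 24-month libraries and 47 to 896 with 1 library left out.

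Of the same-numbered pairs of libraries, 0 of 15 correlated above 0.1. Deviations from a group mean sum to 0 within the group, so this check cannot exclude pairing. With the replicate block the count was 28 in Csf1r_het, 256 in Csf2het, 0 for Dhet against Csf1r_het, 0 for Dhet against Csf2het and 14 for the interaction, and 0 of 5 genes were called. Folr2 and Cbr2 each had 0 reads in 2 libraries, none of them the shallowest by assigned reads, which include haemoglobin. Folr2 was at 0 in Csf1r_het replicate 2 and Csf2het replicate 3, where a read stood for the most normalized counts (1.48 and 1.36). These libraries also had the highest haemoglobin shares (58.8% and 40.2%). Cbr2 was at 0 in WT replicate 3 (1.15 normalized counts per read) and Csf2het replicate 3. The part of depth in these zeros was not tested.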
